A study of Mus musculus with 4 samples.

Results

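The libraries labelled pachytene spermatocytes (PaSC) and type A spermatogonia (SG) were compared gene by gene in a table of RNA levels from C57BL/6 mouse spermatogenic cells. Of 24426 genes in the table, 10694 reached at least 5 FPKM (fragments per kilobase of transcript, scaled to the mapped fragments of the library) in at least 1 of these libraries and were kept, after genes of small nucleolar, small nuclear, micro- and other short RNAs had been left out by their symbols. The highest of the 2 values lay between 5 and 6 FPKM in 490 of these genes, and between 4 and 5 FPKM in 569 genes that stayed out. For PaSC, and also for preleptotene (PlpSC) and leptotene/zygotene (L/ZSC) spermatocytes, the cells came from 5 male mice of 17 days, and for SG from 30 male mice of 7 days. Testes were digested with enzymes, Sertoli cells were left to adhere, and the floating cells were separated by size with gravity sedimentation (STA-PUT). Total RNA without ribosomal RNA was sequenced from directional libraries, and no genetic change or drug treatment was involved. Each stage had 1 library made from pooled mice, so no difference has a replicate check, and no test, p-value or SD is given. By the study's account, PaSC and SG mice differed in age as well as in stage, and age and stage cannot be told apart. These ages hold for a library only if its label is right.

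The labels need care. The long noncoding RNA values in the column labelled SG run in proportion to those that the study's supplementary table gives for PaSC, and the cell type markers described here do not follow the labels at several points. The libraries are therefore called labelled PaSC and labelled SG throughout, and a difference is one between these libraries and not between the stages.

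Mouse spermatogenesis runs from mitotic spermatogonia through the long meiotic prophase of spermatocytes to haploid spermatids. Pachytene spermatocytes hold fully paired homologous chromosomes, silence the X and Y chromosomes in the sex body, and switch on many testis-specific genes. Round spermatids then build the acrosome and the tail, and elongating spermatids replace histones first with transition proteins and then with protamines. During the first wave of spermatogenesis in young mice, spermatids are known to appear later than pachytene spermatocytes. Sertoli cells nurse the germ cells inside the tubule, and Leydig cells between the tubules make testosterone.

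Differences are given as log2 of labelled PaSC over labelled SG, with 0.5 FPKM added to both values, which understates the difference of genes with low levels. A gene was counted as higher or lower when this ratio, with 0.5 FPKM added to both values, was over 1.5 in either direction, and the larger classes of difference use the same ratio. On this count 2491 genes (23.3%) were higher and 3678 genes (34.4%) were lower in labelled PaSC, and 4525 were neither. These shares of all genes are the background for every count of listed genes given here. Of the 4 libraries, labelled PlpSC held the highest level for 3556 genes, labelled PaSC for 3175, labelled L/ZSC for 2133 and labelled SG for 1830. These numbers are the background for counts by highest library. The median log2 difference over all 10694 genes was -0.20, with the middle of the distribution between -0.87 and 0.52. Scaling the libraries by the median of ratios moved this median to 0.15 and turned the split to 3576 higher and 2496 lower genes, and scaling to the same sum gave a median of 0.04 with 3194 higher and 2838 lower genes. Which direction held more genes therefore depended on the scaling.

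The extremes were far from symmetric. Labelled PaSC was over 16 times higher in 637 genes (5.96%) and over 16 times lower in 79 genes (0.739%). Beyond 64 times there were 252 higher genes and no lower gene, and beyond 256 times there were 23 higher genes. The log2 differences ran between -5.68 and 11.26. A level of at least 5 FPKM was reached in both libraries by 7547 genes, in labelled PaSC alone by 1300 and in labelled SG alone by 1847. Among all genes kept, 3 were listed at 0 in labelled PaSC and 154 in labelled SG, and such genes are in the classes only by the ratio with 0.5 FPKM added, with no fold given for a single one.

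**Figure D1:**
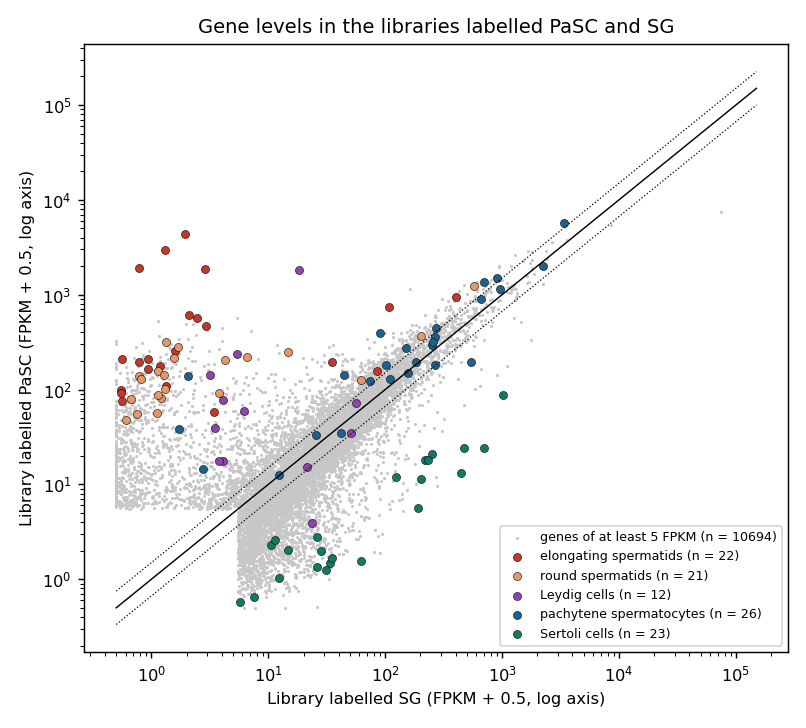
Level of each of the 10694 genes in the library labelled PaSC (vertical, FPKM + 0.5, log axis) against the library labelled SG (horizontal, FPKM + 0.5, log axis). The solid line marks equal values and the dotted lines a ratio of 1.5, and colored points are members of 5 marker lists. Spermatid markers stand high at the left, and Sertoli cell markers lie below the lines. Of 26 pachytene markers, 13 lie between the dotted lines, 12 above them and 1 below.

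The genes that repackage sperm DNA held the largest differences. Tnp1, a transition protein that replaces histones, had 4407 FPKM in labelled PaSC, against 1.44 FPKM in labelled SG. The protamine genes Prm1 and Prm2, whose proteins condense the sperm nucleus, had 2937 and 1914 FPKM in labelled PaSC, against 0.797 and 0.281 FPKM in labelled SG. Tnp2, the other transition protein, had 1878 FPKM in labelled PaSC and 2.35 FPKM in labelled SG. Their log2 differences were 11.15 for Tnp1, 11.15 for Prm1, 11.26 for Prm2 and 9.36 for Tnp2. The spermatid linker histones H1fnt and Hils1 followed at 8.55 and 7.31, and Prm3 at 7.32. Summed, these 7 genes had 12066 FPKM in labelled PaSC and 8.48 FPKM in labelled SG. In stage order, Tnp1 had 1.44 FPKM in labelled SG, 2.23 FPKM in labelled PlpSC, 29.5 FPKM in labelled L/ZSC and then 4407 FPKM in labelled PaSC, so the level was highest by far in labelled PaSC and next highest in labelled L/ZSC.

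Short promoter windows are shown for 5 genes far higher in labelled PaSC and for 2 far lower, because an octamer close to the cAMP response element (CRE) differed in frequency between such genes. The element is bound by CREB, CREM and ATF proteins, and CREM is a known activator of spermatid genes in mice. Each window has 28 bases of the RefSeq promoter (GRCm38.p6), read along the gene's own strand, and the capitals mark a match to TGACNTCA on either strand. Only genes with a match before the start could be shown, taken by level in the library where they were higher. The windows therefore do not show how common the match is. Prm2 and Tnp2, with higher levels than Gsg1, are not among those shown. The far lower Mageb16 and H2-Q10 also had a match, ending 45 and 198 bases before the start, but their windows are left out.
Tnp1, chr1:73015976-73016003, minus strand: caaaggttagTGATGTCAcaagagagct
Prm1, chr16:10796870-10796897, minus strand: tggtcctcttTGACTTCAtaattcctag
Gsg1, chr6:135254341-135254368, minus strand: catcacagaaTGAAGTCAtagtaaccca
1700092M07Rik, chr19:8740686-8740713, plus strand: gcgggagaccTGACATCAcaaaagctag
1700003F12Rik, chr2:154548801-154548828, plus strand: tttggtgtggTGAGGTCActtgtgagct
Sdc4, chr2:164443369-164443396, minus strand: agctacagatTGAGGTCAgtttggagcc
Daam2, chr17:49564347-49564374, minus strand: ccaagacgccTGACGTCAgagcggggcg
The match ended 87 bases before the start of Tnp1, 57 before Prm1, 15 before Gsg1, 15 before 1700092M07Rik and 86 before 1700003F12Rik, against 191 before Sdc4 and 20 before Daam2. Gsg1, a germ cell-associated gene, had 569 FPKM in labelled PaSC and 4.93 FPKM in labelled SG. The RIKEN genes 1700092M07Rik and 1700003F12Rik had 492 and 488 FPKM in labelled PaSC, against 1.49 and 1.77 FPKM in labelled SG. Sdc4, a cell surface proteoglycan, had 6.33 FPKM in labelled PaSC and 130 FPKM in labelled SG, and Daam2, a formin of the actin cytoskeleton, had 1.55 and 44.6 FPKM in these libraries.

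The share of genes with such a match increased with the difference between the libraries. Promoters ran between 250 bases before and 50 bases after the start, on both strands, and 8687 of the 10694 genes had at least 1. TGACNTCA was found in 41.3% of 208 genes over 64 times higher in labelled PaSC and in 32.1% of 287 genes between 16 and 64 times higher. It was found in 9.05% of 3700 genes within 1.5 times, in 6.35% of 63 genes over 16 times lower and in 10.0% of 27025 genes with a promoter in the reference table. Most of the increase came from the variant TGACATCA, with 27.9% over 64 times higher, 1.86% within 1.5 times and 4.18% of the reference. The palindrome TGACGTCA, the full CRE, did not share the pattern, at 2.88%, 4.95% and 2.03% of the same groups. Where genes over 16 times higher had a match before the start, it lay within 100 bases of it in 91.1% of 169 genes, against 66.4% of 289 genes within 1.5 times. Promoters of genes over 64 times higher held a median of 3 CpG sites, against 22.5 within 1.5 times and 13 over 16 times lower. A match is a description of the sequence and not evidence of binding. The motifs were chosen after the levels had been seen.

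**Figure D2:**
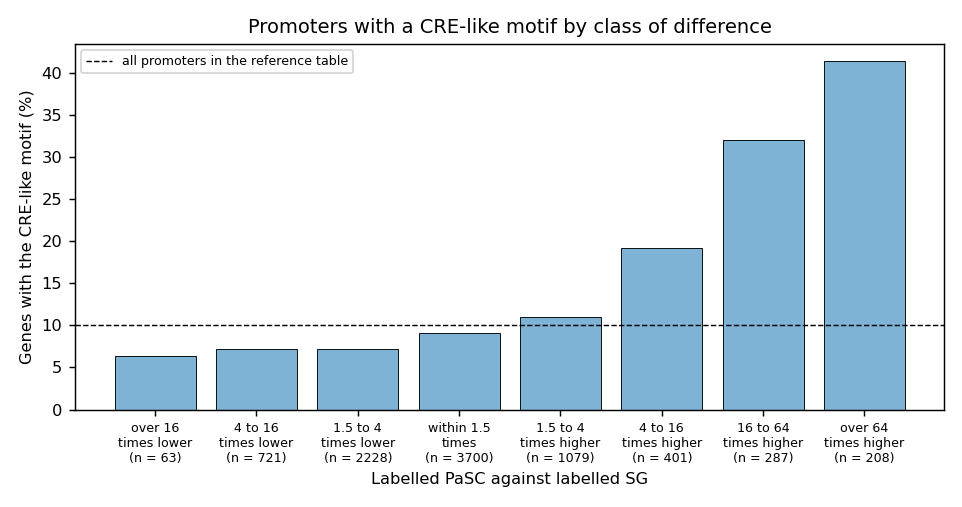
Share of genes (vertical, %) with a match to the CRE-like octamer in any of their promoters, by class of difference between labelled PaSC and labelled SG (horizontal, with the number of genes). The dashed line marks the share of all genes in the reference table, 10.0%, and the bars reach 41.3% in the class over 64 times higher.

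Other regulatory words differed less. CCAAT was found in 41.8% of genes over 64 times higher, 43.9% of genes within 1.5 times and 41.1% of the reference. TATAAA was found in 12.0%, 7.11% and 15.7% of these groups. TAACNG, a word of MYB proteins that include the pachytene regulator MYBL1 (A-MYB), was found in 28.8%, 25% and 25.9%, and also in 35.5% of genes between 16 and 64 times higher and 14.3% of genes over 16 times lower. These searches also covered both strands, and each word was counted whether or not it overlapped another.

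Every marker listed for spermatids was higher in labelled PaSC. All 22 listed genes of elongating spermatids reached 5 FPKM and were higher, 18 of them over 16 times, with a median log2 difference of 7.42 beside -0.20 for all genes. All 21 listed genes of round spermatids reached 5 FPKM and were higher, 18 of them over 16 times, with a median of 6.28. Akap4, the main protein of the fibrous sheath of the tail, had 195 FPKM in labelled PaSC and 0.284 FPKM in labelled SG. Acrv1, an acrosomal matrix protein, had 156 and 0.645 FPKM in labelled PaSC and labelled SG. Oaz3, an antizyme of haploid germ cells, had 607 FPKM in labelled PaSC and 1.59 FPKM in labelled SG. A few listed genes were already high in labelled SG, namely Pgam2 with 1242 FPKM in labelled PaSC and 575 FPKM in labelled SG, Tcp11 with 952 and 405 FPKM, and Spata16 with 368 and 201 FPKM. A gene that is high in 1 library alone passes the minimum of 5 FPKM through that library, so counts over the genes that passed describe them and support no more.

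Acrosome genes divided into those near 0 in labelled SG and those present in both libraries. Of 35 listed genes, 33 reached 5 FPKM, and 30 were higher and 1 was lower in labelled PaSC, with a median of 3.94. In the list, 16 genes were over 16 times higher, and 16 differed by less than 4 times in either direction. The strongly higher ones included the membrane antigens Spaca4 (314 FPKM in labelled PaSC, 0.837 FPKM in labelled SG) and Spaca3 (282 and 1.18 FPKM), and the sperm-egg fusion gene Izumo1 (56.6 and 0.607 FPKM). Those present in both included the protease gene Acr (116 FPKM in labelled PaSC, 51.0 FPKM in labelled SG), Acrbp, whose protein binds the precursor of acrosin (477 and 185 FPKM), and the zona binding gene Zpbp (135 and 60.4 FPKM). Tmem95, a sperm membrane protein needed for fertilization in mice, had 7.16 FPKM in labelled PaSC and was listed at 0 in labelled SG. Tex101, a germ cell membrane glycoprotein, was the lower one, with 196 FPKM in labelled PaSC and 544 FPKM in labelled SG.

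The tail showed the same range. Of 25 listed sheath and dense fiber genes, 24 were in the table, and all 24 reached 5 FPKM and were higher, with a median of 2.34. Odf1, a protein of the outer dense fibers, had 563 FPKM in labelled PaSC and 1.98 FPKM in labelled SG. Odf2, which is also found at centrosomes, had 1263 FPKM in labelled PaSC and 475 FPKM in labelled SG. Gpx4, the selenoprotein of the mitochondrial sheath, had 1981 and 950 FPKM in these libraries. Axonemal dyneins differed little, with a median of -0.04 over 12 genes. Intraflagellar transport genes had a median of 0.17 over 14, of which 12 were neither higher nor lower. Of 23 Cfap genes (cilia and flagella associated), 14 were higher (60.9%, against 23.3% of all genes) and none lower, with a median of 0.86. All 5 Tekt genes, part of the sheath and dense fiber list, were higher, with a median of 1.81. The dynein median turns positive under median-ratio scaling.

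Subunits of the sperm calcium channel CatSper were divided in the same manner. Catsper1, Catsper3 and Catsper4 had 24.1, 54.5 and 88.1 FPKM in labelled PaSC, against 0.122, 0.249 and 0.635 FPKM in labelled SG. Catsper2, another pore subunit, had 169 FPKM in labelled PaSC and 78.0 FPKM in labelled SG. The auxiliary subunits Catsperb (44.0 and 36.1 FPKM in labelled PaSC and labelled SG) and Catsperg1 (51.9 and 46.3 FPKM) differed by less than 1.5 times. Atp1a4, the sodium pump subunit of sperm, had the largest difference of the channel and pump list, with 110 FPKM in labelled PaSC and 0.151 FPKM in labelled SG. In that list 10 of the 16 genes at 5 FPKM were higher and none was lower.

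Gene families known from spermatids followed. All 6 testis-specific serine kinases (Tssk genes) were over 16 times higher, with 767 FPKM in labelled PaSC and 12.3 FPKM in labelled SG in sum. All 5 Iqcf genes, a cluster coding for proteins with IQ motifs, were over 16 times higher, and so were 7 of 10 Cypt genes, the other 3 of which stayed under 5 FPKM. Of 33 Adam genes, which code for membrane proteases and sperm surface proteins, 25 reached 5 FPKM, 21 of them higher and 3 lower. The lower ones were Adam10, Adam9 and Adam17, broadly expressed sheddases, with 1.54, 2.42 and 6.62 FPKM in labelled PaSC against 13.2, 11.7 and 14.9 FPKM in labelled SG. Cypt genes, Adam6a with Adam6b, and others with near-identical copies share reads, and their single values are uncertain.

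Hspa1l, the HSP70 form of spermatids, had 81.5 FPKM in labelled PaSC and 0.858 FPKM in labelled SG. Its relatives behaved otherwise: Hspa2, the form of meiotic cells, had 1153 FPKM in labelled PaSC and 961 FPKM in labelled SG, and the heat-inducible Hspa1b had 0.982 and 8.12 FPKM. Among regulators of transcription, Fhl5 (also called ACT, a partner of CREM) had 139 FPKM in labelled PaSC and 0.276 FPKM in labelled SG. Crem itself had 125 and 61.3 FPKM. The files give genes and not isoforms, so the activator and repressor forms of Crem cannot be told apart.

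**Figure D3:**
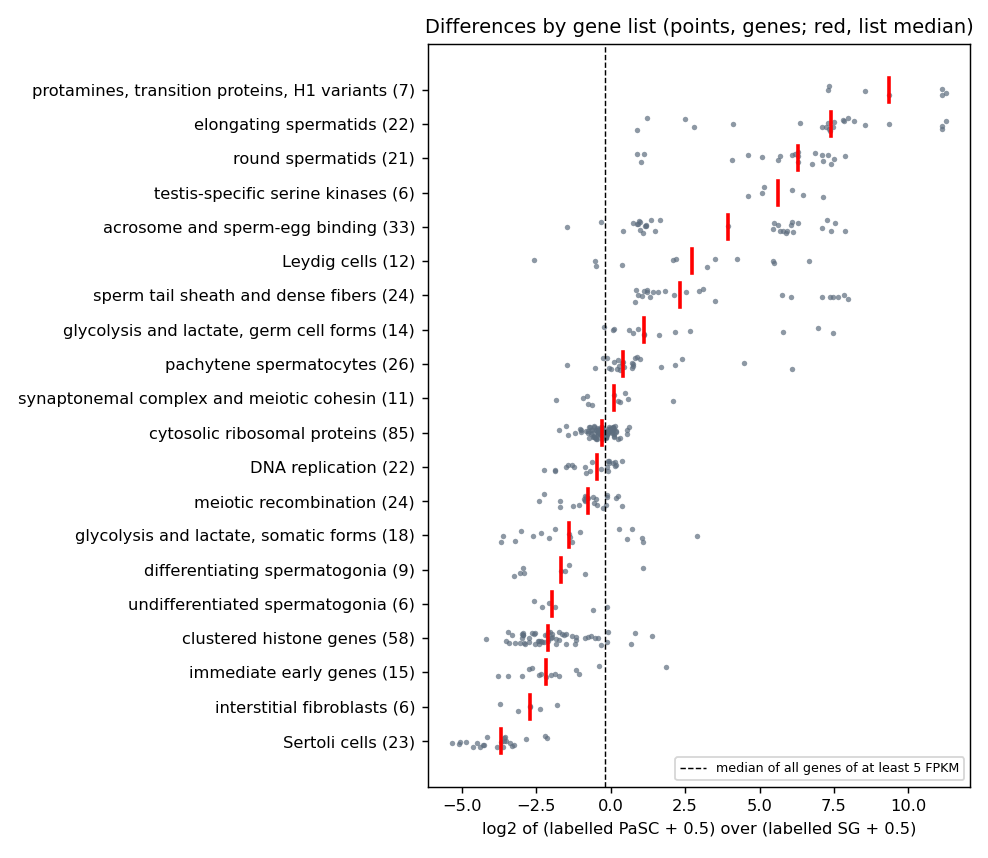
Log2 difference of labelled PaSC over labelled SG (horizontal) for the genes of 20 lists that reached 5 FPKM (points, with their number in parentheses). Red bars are list medians, between 9.36 for sperm chromatin genes and -3.68 for Sertoli cell markers, and the dashed line is the median of all genes, -0.20.

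Pachytene markers were high in both libraries. All 26 listed genes reached 5 FPKM, and 12 were higher, 1 was lower and 13 were neither, with a median of 0.42 beside -0.20 for all genes. Their summed levels were 16310 FPKM in labelled PaSC and 11709 FPKM in labelled SG. Ldhc, the lactate dehydrogenase of germ cells that starts in meiotic prophase, had 5721 FPKM in labelled PaSC and 3409 FPKM in labelled SG, which placed it among the highest genes of both. Hist1h1t, the testis linker histone of pachytene cells, had 2016 FPKM in labelled PaSC and 2227 FPKM in labelled SG. Piwil1, the pachytene piRNA-binding protein, had 182 and 265 FPKM, and Mybl1, the regulator of pachytene transcription, had 34.2 and 41.4 FPKM in labelled PaSC and labelled SG. Spag6 (139 and 1.54 FPKM), Calr3 (37.9 and 1.22 FPKM) and Pgk2 (398 and 89.7 FPKM) were the listed genes with the largest differences besides the phosphatase Cdc25c.

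In stage order, Ldhc had 3409 FPKM in labelled SG, 354 FPKM in labelled PlpSC, 5468 FPKM in labelled L/ZSC and then 5721 FPKM in labelled PaSC. Among the 26 pachytene markers, labelled PlpSC stood at a median of 18.2% of labelled SG, and labelled L/ZSC at 137%. Of these markers 15 had their highest level in labelled PaSC, 9 in labelled L/ZSC, 1 in labelled PlpSC and 1 in labelled SG. Spermatogonia are known to lack most of these transcripts, so the library labelled SG did not match its label on this list. The library labelled PaSC carried the pachytene list together with the spermatid lists.

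**Figure D4:**
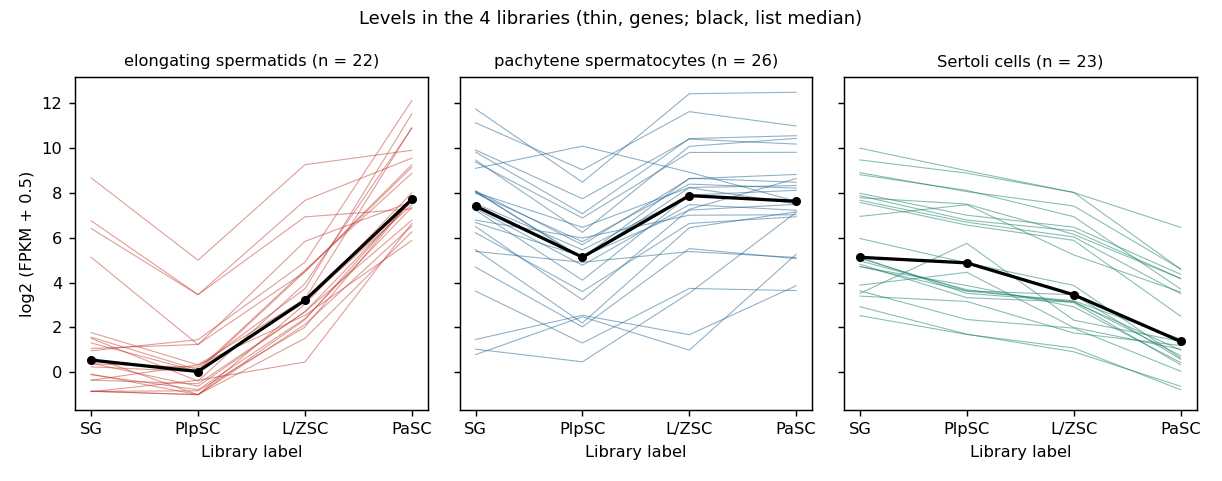
Levels as log2 (FPKM + 0.5) in the 4 libraries in stage order for the elongating spermatid, pachytene spermatocyte and Sertoli cell lists (thin lines, single genes; black points, list medians). Spermatid genes are high in labelled PaSC, the pachytene median is lowest in labelled PlpSC, and the Sertoli cell median is lowest in labelled PaSC.

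Sertoli cell genes had the lowest median of the lists described. Of 25 listed genes, 23 reached 5 FPKM and all 23 were lower, with a median of -3.68 and single values between -5.33 and -2.14. Their sum was 246 FPKM in labelled PaSC and 4168 FPKM in labelled SG, beside 2503 FPKM in labelled PlpSC and 1289 FPKM in labelled L/ZSC. Clu, a secreted chaperone, had 87.6 FPKM in labelled PaSC and 1014 FPKM in labelled SG. Cst12, a cystatin of Sertoli cells, had 23.7 and 706 FPKM, and Inha, the inhibin alpha subunit, had 10.8 and 203 FPKM in labelled PaSC and labelled SG. Sox9, the transcription factor that sets Sertoli cell identity, had 0.149 FPKM in labelled PaSC and 7.07 FPKM in labelled SG, and Wt1 had 0.850 and 25.6 FPKM. Labelled SG was the highest of the 4 libraries for 20 of the 23 genes. In bulk RNA, fewer cells of a type and less RNA per cell cannot be told apart.

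Sertoli cell genes were also among the largest differences in this direction. The 15 lowest log2 differences included Shbg, Aard, Cldn11 and Cst12 of the Sertoli list. Cldn11, the claudin that seals the blood-testis barrier, had 5.15 FPKM in labelled PaSC and 189 FPKM in labelled SG. Wfdc1 and Wfdc10, proteins with a protease-inhibitor fold, had 1.40 and 9.22 FPKM in labelled PaSC, against 89.8 and 277 FPKM in labelled SG. Col18a1, a basement membrane collagen, had 1.42 FPKM in labelled PaSC and 79.4 FPKM in labelled SG. Gatm, an enzyme of creatine synthesis, had 4.70 and 142 FPKM, and Slc52a3, a riboflavin transporter, 2.79 and 81.4 FPKM. Dpysl4 and Basp1, known from neurons, and the X-linked Etd and Nxf3 were in the same set, with 0.514, 2.47, 2.34 and 0.851 FPKM in labelled PaSC against 32.5, 92.8, 85.9 and 33.9 FPKM in labelled SG.

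In the other libraries, the 79 genes over 16 times lower stood at a median of 54.7% of labelled SG in labelled PlpSC and 27.7% in labelled L/ZSC, with Eif3j2 an exception at only 0.0286 FPKM in labelled L/ZSC, against 25.4 FPKM in labelled SG. These genes were chosen for a high level in labelled SG, so their standing relative to it is a description only. The 23 Sertoli cell markers, some of which are among the 79, had medians of 50.7% in labelled PlpSC and 30.1% in labelled L/ZSC. The part of Sertoli cell RNA in the other differences was not tested. Junction genes of the blood-testis barrier were lower in 8 of 11 genes with a median of -1.48, among them Ocln (0.588 FPKM in labelled PaSC, 13.0 FPKM in labelled SG) and the gap junction gene Gja1 (5.65 and 37.6 FPKM).

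Leydig cell genes went the other way. Of 14 listed genes, 12 reached 5 FPKM, and 8 were higher and 1 was lower in labelled PaSC, with a median of 2.71. Insl3, the peptide hormone of testicular descent, had 1834 FPKM in labelled PaSC and 17.7 FPKM in labelled SG, beside 632 FPKM in labelled PlpSC and 31.6 FPKM in labelled L/ZSC. Cyp17a1 and Cyp11a1, steroid-making cytochromes, had 142 and 77.8 FPKM in labelled PaSC, against 2.65 and 3.63 FPKM in labelled SG. Star, which carries cholesterol into mitochondria, had 58.2 FPKM in labelled PaSC and 5.72 FPKM in labelled SG. Ptgds, a prostaglandin synthase that germ cells can also express, had 236 and 4.90 FPKM. Nr5a1, the regulator of steroidogenic genes that Sertoli cells also express, was lower, with 3.43 FPKM in labelled PaSC and 23.0 FPKM in labelled SG. Against labelled PlpSC in place of labelled SG the Leydig median was 0.29, so this difference depended on the library set against labelled PaSC.

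Other somatic lists were small. Of 8 myoid genes, 4 reached 5 FPKM, with Actg2, a smooth muscle actin, at 90.3 FPKM in labelled PaSC and 1.19 FPKM in labelled SG, and Myl9 at 5.03 and 24.5 FPKM. All 6 fibroblast genes at 5 FPKM were lower with a median of -2.71, and Sparc, a matrix glycoprotein, had 36.4 FPKM in labelled PaSC and 194 FPKM in labelled SG. Of 16 macrophage and leukocyte genes only H2-Ab1, Lyz2 and Mrc1 reached 5 FPKM, all lower, and none of the 8 red blood cell genes in the table did.

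Markers of undifferentiated spermatogonia were scarce in both libraries. Of 24 listed genes, 6 reached 5 FPKM, of which 5 were lower in labelled PaSC and 1 was neither. Zbtb16, a regulator of stem cell maintenance, had 0.892 FPKM in labelled PaSC, 4.15 FPKM in labelled SG and 10.0 FPKM in labelled PlpSC. Gfra1, the GDNF receptor subunit of stem cells, had 2.31 FPKM in labelled PaSC and 1.03 FPKM in labelled SG, and Nanos2 0.0714 and 0.220 FPKM. Labelled SG was the highest of the 4 libraries for none of the 6 genes, and labelled PlpSC was for 4.

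Of 10 listed genes of differentiating spermatogonia, 9 reached 5 FPKM, and 8 were lower in labelled PaSC and 1 was higher, with a median of -1.67. Uchl1, a ubiquitin hydrolase of spermatogonia, had 10.5 FPKM in labelled PaSC, 91.2 FPKM in labelled SG and 115 FPKM in labelled PlpSC. Dmrt1, which holds back meiosis and is also present in Sertoli cells, had 2.70 FPKM in labelled PaSC, 29.8 FPKM in labelled SG and 62.5 FPKM in labelled PlpSC. Stra8, the retinoic acid-induced gene of meiotic entry, had 1.96, 18.6 and 47.1 FPKM in these libraries. The higher one was Dmrtb1, with 461 FPKM in labelled PaSC and 219 FPKM in labelled SG. For 8 of the 9 the highest level was in labelled PlpSC, and for none in labelled SG.

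Recombination genes were lower or near even. Of the 24 such genes at 5 FPKM, 14 were lower and none was higher, with a median of -0.78. Dmc1, the meiotic strand-exchange protein, had 1.75 FPKM in labelled PaSC and 11.6 FPKM in labelled SG, and Tex11, an X-linked crossover gene, had 1.68 and 9.84 FPKM. Spo11, the enzyme of the initiating breaks, had 78.9 FPKM in labelled PaSC and 60.0 FPKM in labelled SG. Genes of the synaptonemal complex and cohesin had a median of 0.11 over 11 genes, with Sycp3, a lateral element protein, at 130 and 223 FPKM and Syce1, a central element protein, at 384 and 260 FPKM in labelled PaSC and labelled SG. Rec8, the meiotic kleisin of cohesin, was the one higher, with 40.0 FPKM in labelled PaSC and 8.90 FPKM in labelled SG. Among 18 piRNA pathway genes, 3 were higher (16.7%) and 8 lower (44.4%), not far from the 23.3% and 34.4% of all genes, with Gtsf1 at 417 FPKM in labelled PaSC and 186 FPKM in labelled SG and Fkbp6 at 36.4 and 102 FPKM.

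Counts of sugar metabolism genes differed between germ cell and somatic forms. Of the 14 germ cell forms of glycolysis and lactate use, 11 were higher in labelled PaSC and none was lower, with a median of 1.12. Of the 18 somatic forms at 5 FPKM, 12 were lower and 4 were higher, with a median of -1.40. The summed level of all 20 somatic forms was nevertheless near even, with 2099 FPKM in labelled PaSC and 2113 FPKM in labelled SG. The germ cell forms summed to 11329 and 6609 FPKM. Gapdhs, the sperm glyceraldehyde phosphate dehydrogenase, had 163 FPKM in labelled PaSC and 0.428 FPKM in labelled SG, and its somatic form Gapdh had 42.4 and 180 FPKM. Pgk2, the autosomal phosphoglycerate kinase of germ cells, had 398 FPKM in labelled PaSC and 89.7 FPKM in labelled SG, and the X-linked Pgk1 had 8.38 and 22.7 FPKM. Ldhb had 16.4 FPKM in labelled PaSC and 219 FPKM in labelled SG. Hk1, which gives rise to a germ cell isoform that the table does not separate, was higher, with 196 and 25.7 FPKM. Cycs, the somatic cytochrome c, had 4.66 FPKM in labelled PaSC and 41.8 FPKM in labelled SG, whereas testis cytochrome c, Cyct, had 195 and 230 FPKM.

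Clustered histone genes were mostly lower. Of 68 genes, 58 reached 5 FPKM, and 50 were lower and 3 were higher, with a median of -2.11 and sums of 12938 FPKM in labelled PaSC and 24862 FPKM in labelled SG. Hist1h1a, a linker histone, had 109 FPKM in labelled PaSC and 643 FPKM in labelled SG, beside 3222 FPKM in labelled PlpSC. Hist1h2ba, the testis histone H2B and one of the highest genes in both libraries, had 5386 FPKM in labelled PaSC and 8494 FPKM in labelled SG. Copies of these genes are near identical, and single values are uncertain. DNA replication genes had a median of -0.48 with 11 of 22 lower (50%, against 34.4% of all genes). Among the lower ones was Mcm2 of the replicative helicase (2 FPKM in labelled PaSC, 11.4 FPKM in labelled SG), whereas Pcna had 201 and 215 FPKM. Over the 21 cell cycle genes at 5 FPKM, 9 were higher (42.9%, against 23.3% of all genes) and 6 lower (28.6%, against 34.4%). Their median was 0.10. Ccna1, the cyclin of male meiosis, had 142 FPKM in labelled PaSC and 43.7 FPKM in labelled SG, the kinase gene Plk1 had 56.1 and 17.2 FPKM, and Ccna2 had 3.09 and 10.3 FPKM.

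Immediate early genes, which cells induce within minutes of a stimulus and also during tissue dissociation, were lower in 13 of 15 genes, with a median of -2.18. They summed to 164 FPKM in labelled PaSC and 596 FPKM in labelled SG, beside 1159 FPKM in labelled PlpSC and 100 FPKM in labelled L/ZSC. Fos had 11.3 FPKM in labelled PaSC and 79.9 FPKM in labelled SG, and Atf3 had 2.06 and 35.4 FPKM. Against labelled L/ZSC in place of labelled SG the median was 0.79, the opposite direction. The part of these genes in the other differences was not tested. In the BCL2 family, 7 of 11 genes were lower (63.6%, against 34.4% of all genes). The death effector Bax had 4.74 FPKM in labelled PaSC and 20.3 FPKM in labelled SG, and Bcl2l14 alone was higher, with 110 and 0.473 FPKM.

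X-linked genes differed from autosomal genes in spread as well as in median. Of 299 X-linked genes, 103 were higher (34.4%) and 176 were lower (58.9%) in labelled PaSC, against 22.9% and 33.7% of 10355 autosomal genes. The X-linked median was -1.51, and the medians of single autosomes ran between -0.35 and -0.08. On the X, 47 genes were over 16 times higher and 15 over 16 times lower. The higher ones included Akap4 with 195 FPKM in labelled PaSC and 0.284 FPKM in labelled SG, Tsga8 with 240 and 11.8 FPKM, and Cypt1 with 131 and 0.371 FPKM. The lower ones included Rhox5, a Sertoli cell homeobox gene, with 1.17 FPKM in labelled PaSC and 34.4 FPKM in labelled SG. Tmsb4x, an actin-binding thymosin, had 36.0 FPKM in labelled PaSC and 303 FPKM in labelled SG, and Maged1 had 18.6 and 228 FPKM.

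Of the 299 X-linked genes that reached 5 FPKM in labelled PaSC or labelled SG, none had its highest level in labelled L/ZSC. It was in labelled PlpSC for 145, in labelled PaSC for 91 and in labelled SG for 63. Over all 10694 genes the highest level was in labelled L/ZSC for 2133, in labelled PlpSC for 3556, in labelled PaSC for 3175 and in labelled SG for 1830. An X-linked gene high in labelled L/ZSC alone could not enter this count. Against labelled L/ZSC in place of labelled SG the X-linked median was 1.73, the opposite direction, so the lower X-linked median of labelled PaSC held only against labelled SG and labelled PlpSC. Not every X-linked gene was higher than in labelled L/ZSC: Taf1, a subunit of the general factor TFIID, had 6.32 FPKM in labelled SG, 23.5 FPKM in labelled PlpSC, 2.25 FPKM in labelled L/ZSC and then 0.932 FPKM in labelled PaSC. The autosomal copies of X-linked genes that germ cells use were near even, with a median of 0.22 over 11 genes, of which 4 were higher and none lower. Rpl10l, the copy of the ribosomal gene Rpl10, had 365 FPKM in labelled PaSC and 338 FPKM in labelled SG, against 44.6 and 91.4 FPKM for Rpl10.

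**Figure D5:**
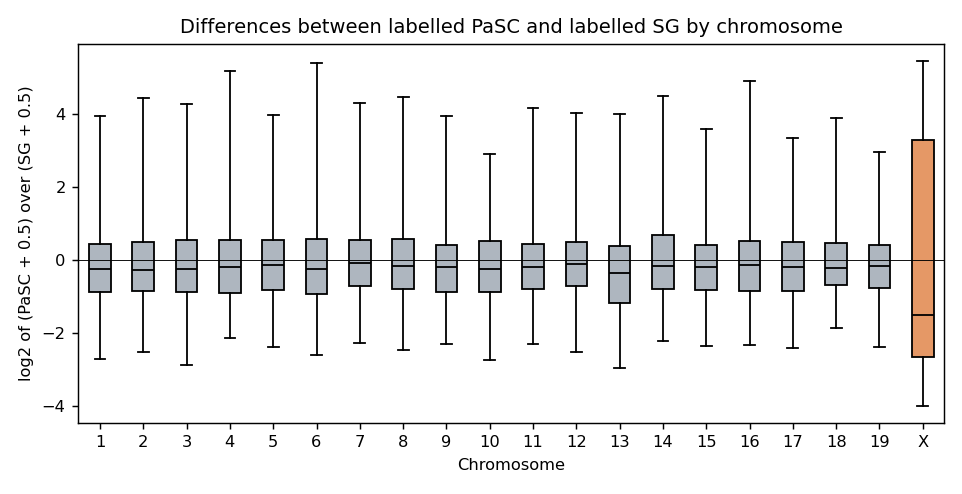
Log2 difference of labelled PaSC over labelled SG (vertical) for genes of each autosome and the X (horizontal). Boxes span the middle 50% of genes with the median as a line, and whiskers reach the 5th and 95th percentiles. The X has the lowest median, -1.51, and the widest box.

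Long noncoding RNAs leaned toward labelled PaSC. Of 465 genes of that annotation, 278 were higher (59.8%, against 23.3% of all genes) and 42 were lower (9.03%, against 34.4%). Their median was 0.97, beside -0.25 for 10103 protein-coding genes. In 98 of the noncoding genes labelled PaSC was over 16 times higher. 1700027A15Rik had 324 FPKM in labelled PaSC and was listed at 0 in labelled SG, and 1700101O22Rik had 304 FPKM and was also listed at 0. Rbakdn, the noncoding RNA the study pursued, was the highest of this class, with 2818 FPKM in labelled PaSC and 1803 FPKM in labelled SG, beside 171 FPKM in labelled PlpSC and 2938 FPKM in labelled L/ZSC. Its log2 difference was 0.64, above the median of all genes and below that of its class. Malat1, a nuclear noncoding RNA, had 315 FPKM in labelled PaSC and 489 FPKM in labelled SG. Ptbp2, the splicing regulator that the study links to Rbakdn, had 72.1 FPKM in labelled PaSC and 103 FPKM in labelled SG, within 1.5 times. Genes named only as RIKEN clones of the large testis series, such as 1700027A15Rik, showed the same lean. Of 253 at 5 FPKM, 206 were higher (81.4%), with a median of 3.28. Of all 353 in the table, 99 were listed at 0 in labelled SG and 6 in labelled PaSC. Genes that passed the minimum through labelled PaSC alone could not be lower, so both counts only describe the genes that passed.

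Housekeeping families stayed close to the median of all genes. Cytosolic ribosomal proteins had a median of -0.29 over 85 genes, of which 66 were neither higher nor lower. Proteasome subunits had a median of -0.23, mitochondrial ribosomal proteins -0.24 and subunits of the respiratory chain -0.06, and all of these medians turn positive under median-ratio scaling. Among genes often used as references, Ppia had 1664 FPKM in labelled PaSC and 1890 FPKM in labelled SG, whereas Actb had 290 and 578 FPKM and Hprt, which is X-linked, had 2.90 and 21.6 FPKM. Rpph1, the RNA of ribonuclease P, is a short RNA that the symbols did not leave out, at 7400 FPKM in labelled PaSC and 75277 FPKM in labelled SG. The 37 short RNA genes that were left out held 23.1% of the summed FPKM in labelled PaSC and 37.3% in labelled SG.

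The lowest log2 difference of all, -5.68, belonged to a duplicated gene. Eif3j2 had 0.00598 FPKM in labelled PaSC and 25.4 FPKM in labelled SG, and its near-identical copy Eif3j1, which codes for the same subunit of a translation initiation factor, had 18.5 and 0.0219 FPKM. Their sums were 18.5 FPKM in labelled PaSC and 25.4 FPKM in labelled SG, so the pair exchanged values while the total differed by less than 1.5 times. In stage order Eif3j2 had 25.4 FPKM in labelled SG, 18.6 FPKM in labelled PlpSC, 0.0286 FPKM in labelled L/ZSC and then 0.00598 FPKM in labelled PaSC. Reads cannot be divided reliably between such copies, and the single values of both are uncertain. H2-Q10, one of many similar histocompatibility genes, was listed at 0 in labelled PaSC and had 13.5 FPKM in labelled SG, and the same limit applies to it.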

How the data were processed

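RNA of 4 mouse spermatogenic cell libraries, 1 per stage, was measured, and the 2 libraries labelled PaSC and SG were compared. Per the submitters' notes and the study's methods, the authors mapped reads on mm10 (TopHat) and deposited the FPKM of RefSeq genes (Cuffdiff). Program versions and cross-library scaling were not given in the sources used here. Read counts were not used here, so depth is unknown and no interval is given. The study's filter at 0.5 FPKM had not been applied to the table. Columns were matched to samples by name.

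The analysis ran in Python 3.11.15 (pandas 2.3.3, numpy 2.4.6, matplotlib 3.10.9). Counts used a ratio over 1.5 with 0.5 FPKM added to both values, as did the larger classes, and genes listed at 0 were counted this way but given no single fold, and the counting was tested on simulated data. A total of 41 lists and 33 name families were described. Their members, and the promoter words, were chosen with earlier results of these data known. Named genes were the 15 largest differences each way, members of lists by highest level and largest difference, cell type markers and genes of the study. Adam17, Atf3, Catsperb, Catsperg1, Mybl1 and other list members outside this rule were picked once their values were known. Chromosomes, classes and promoters came from RefSeq (GRCm38.p6), in which 23457 symbols matched directly and 857 through an earlier symbol, while 112 had no match. The alternatives covered pseudocount, minimum level, scaling, genes listed at 0, fold threshold and the library set against labelled PaSC.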

Additional observations from a re-analysis of the deposited data

How the results depend on the processing

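No paired analysis was possible because each stage had 1 library and no replicate numbers. With 1 library per stage and no counts, neither sampling error nor variation between mice can be given. Of the values recomputed under alternatives, 696 were classed as the same, 128 as moved and 4 as reversed, all 4 against labelled L/ZSC. These classes do not count the changes of direction under scaling that are given with the results. In place of labelled SG, labelled L/ZSC gave 1644 lower genes, medians of 3.98 for round spermatids, 4.76 for elongating spermatids, -2.49 for Sertoli cells, 3.37 for Leydig cells and -1.36 for clustered histones, and 50 lower X-linked genes. It reversed the medians of immediate early genes (0.79), retinoic acid genes (0.13), X-linked genes (1.73) and the list of X-linked genes with autosomal copies (0.46), in which Hnrnpm and Zfp37 lie on autosomes. Labelled PlpSC, set in this place after the data had been seen, gave 4278 higher genes, medians of -1.91 for recombination, 2.62 for pachytene, 8.07 for elongating spermatids, 0.29 for Leydig, -3.11 for immediate early and -3.65 for clustered histone genes, an X-linked median of -2.86 and 326 lower X-linked genes. A pseudocount of 0.1 FPKM gave medians of 6.91 for round and 8.38 for elongating spermatids, and 1 FPKM gave 5.59 for round spermatids. With no minimum level 4000 genes were higher and 6008 lower, and on the X 204 were higher and 430 lower with a median of -0.28. A minimum of 1 FPKM gave 176 higher and 372 lower X-linked genes, and a minimum of 10 FPKM gave 62 and 104. A fold threshold of 2 left 2327 lower genes. Under each of the 3 scalings all 75 values were classed as the same, so the classes do not measure stability under scaling. The split of all genes did change direction under median-ratio and same-sum scaling, and the small medians given with the results did so under median-ratio scaling. Among genes over 64 times higher with a single promoter, 38.8% held the CRE-like octamer, and over all promoters 38.5% of that class held it before the start, both chosen after the data had been seen. The cause of these changes was not tested.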

Other observations

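Some further gene groups were measured. Genes over 16 times higher in labelled PaSC were short, with a median span of 8.01 kb, against 14.6 kb over 16 times lower and 20.8 kb for genes neither higher nor lower. Of the 637 genes over 16 times higher, 636 had their highest level in labelled PaSC, and labelled L/ZSC stood at a median of 4.94% of it. These genes were chosen for a high level in labelled PaSC, so both values are a description only. Of 20 listed genes of the ubiquitin pathway of spermatids, 8 were higher (40%, against 23.3% of all genes), 3 lower and 9 neither. Their median was 0.41. The 2 over 16 times higher were the ubiquitin ligase genes Rnf133 and Rnf148. Rnf133 had 52.7 FPKM in labelled PaSC and 0.0797 FPKM in labelled SG, and Rnf148 had 34.7 FPKM and was listed at 0. Of 28 imprinted genes 6 reached 5 FPKM, 4 of them lower (66.7%, against 34.4% of all genes). Peg10 had 0.553 FPKM in labelled PaSC and 19.7 FPKM in labelled SG, and the transporter gene Slc22a18 had 27.8 and 7.19 FPKM. Of 17 sterol synthesis genes at 5 FPKM, 4 were higher (23.5%) and 5 lower (29.4%), near the 23.3% and 34.4% of all genes. Their median was -0.09. Cyp51 had 24.7 FPKM in labelled PaSC and 4.84 FPKM in labelled SG, Fdft1 had 157 and 46.7 FPKM, and Ebp had 3.57 and 19.6 FPKM.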
